A study of Mus musculus with 550 samples.

Results

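The 10 genes described here mark the first steps of neural ectoderm: the transcription factor genes Sox1, Sox3, Sox11, Pax6 and Zic1, the transcriptional repressor genes Hes3 and Hes5, the intermediate filament gene Nes (nestin), and Fabp7 and Crabp2, which encode intracellular carriers of fatty acids and of retinoic acid. They were chosen by name, as 10 rows of a count table with 55228 gene names, and were followed in 486 of 550 single cells. A cell entered if it had at least 50000 assigned reads, at least 2000 detected genes and at most 50% of reads from mitochondrial genes. The cells came from embryoid bodies (EBs), the clusters that embryonic stem cells (ESCs) form when they differentiate in suspension. All were made from E14 mouse ESCs of the 129/Ola strain, held with LIF and serum and then moved without LIF to low-attachment plates in medium with 10% KOSR and 5% FBS.

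The groups were EBs of wild type (WT), of Dnmt3a -/- (called 3AKO here) and of Dnmt3b -/- (called 3BKO) at day 3 and at day 9; the knockouts lack 1 of the de novo DNA methyltransferases in every cell. After filtering there were 79, 83 and 80 cells at day 3, in that order and by their labels, and 89, 88 and 67 at day 9. Before it there were 91 in each day 3 group and 91, 93 and 93 at day 9, so 3BKO of day 9 lost the most cells. Each plate was processed in 2 batches, plate columns 1 to 8 (batch 1) and 9 to 12 (batch 2), which gives 12 libraries of cells (21 to 61 kept cells each). Each genotype at day 9 was on a plate of its own, so plate and genotype cannot be told apart. The methods speak of more than 1 clone per mutant genotype, and the labels name neither clone nor culture, so that each group is 1 sample, no difference below has a replicate check, and none was tested. The question followed here is whether the early neural genes are seen in EBs that lack either enzyme, in how many cells, and together with which others.

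During gastrulation, the anterior epiblast turns into neural ectoderm when signals for mesoderm and epidermis are kept away. Sox1, Sox2 and Sox3 hold these cells as dividing neural progenitors, Notch signalling through Hes factors delays their exit to neurons, and Nes and Fabp7 are usual markers of neuroepithelial and radial glial cells. In EBs grown without added retinoic acid, neural cells arise beside cells of other germ layers and beside cells that remain pluripotent.

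The reads summed over the kept cells ran from 8071118 to 22867811 per library, and the median per cell from 211599 to 692321. Since a deeper cell shows more genes, shares of cells are given after every cell was thinned at random to 50000 reads. A library then had a median of 4211 to 5630 genes per cell. Levels are CPM, reads per 1000000 summed reads, and brackets hold exact 95% intervals for counting error only, since PCR copies of a molecule could not be told from separate molecules. The targeted genes followed the labels at day 9: Dnmt3a was at 23.9 to 26.1 CPM in the 3AKO libraries against 144 to 177 CPM in WT, and Dnmt3b at 15.9 to 16.8 CPM in the 3BKO libraries against 155 to 189 CPM. At day 3 they did so only in batch 1. In batch 2, the library labelled 3AKO had 335 CPM of Dnmt3a and 85.1 CPM of Dnmt3b, and the library labelled 3BKO had 12.8 and 185 CPM, while the former shared plate 210 with batch 1 of label 3BKO and the latter plate 211 with batch 1 of label 3AKO. The day 3 mutant libraries are therefore named by label and batch and are not pooled, and only their batch 1 was compared with WT. Batch 2 libraries had median mitochondrial shares of 9.09% to 13.5% against 3.58% to 6.31% in batch 1, and the part of this in the results was not tested.

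The genes lie on 8 chromosomes (GRCm38, GENCODE gene models). Sox1 (chr8:12395295-12400126, plus strand), Sox3 (chrX:60891366-60893430, minus) and Sox11 (chr12:27334264-27342574, minus) are single-exon genes. Pax6 lies at chr2:105668900-105697364 (plus), Zic1 at chr9:91358058-91365810 (minus), Fabp7 at chr10:57784881-57788450 (plus), and Hes3 (chr4:152285972-152291662, minus) and Hes5 (chr4:154960923-154962371, plus) lie on the same chromosome, as do Crabp2 (chr3:87948666-87953376, plus) and Nes (chr3:87971078-87980451, plus). Of the exon bases of Hes5, 31.8% are shared with Gm20421 on the opposite strand, so its reads are uncertain, as it is not stated whether counting used the strand. Sox1 shares 86 exon bases with Gm25239 and Zic1 shares 60 with Zic4. The other 7 share none.

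Promoter windows, from 250 bases before to 50 bases after the start in RefSeq (GRCm38.p6), were at hand for 7 of the 10 genes and are shown for 3 that the results below turn on: Sox1, Sox11 and Fabp7. Capitals mark CG dinucleotides, at whose cytosines Dnmt3a and Dnmt3b place methyl groups. The windows are chr8:12395269-12395568 (plus strand), chr12:27342669-27342968 (minus) and chr10:57784673-57784972 (plus), each written 5′ to 3′ along the gene.
Sox1 promoter: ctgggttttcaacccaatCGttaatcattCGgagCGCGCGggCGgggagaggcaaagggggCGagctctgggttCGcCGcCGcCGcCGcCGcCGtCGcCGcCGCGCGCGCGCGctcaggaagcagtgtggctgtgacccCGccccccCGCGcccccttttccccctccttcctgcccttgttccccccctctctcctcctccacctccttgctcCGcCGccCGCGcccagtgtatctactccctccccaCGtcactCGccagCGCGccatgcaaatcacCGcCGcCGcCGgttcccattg
Sox11 promoter: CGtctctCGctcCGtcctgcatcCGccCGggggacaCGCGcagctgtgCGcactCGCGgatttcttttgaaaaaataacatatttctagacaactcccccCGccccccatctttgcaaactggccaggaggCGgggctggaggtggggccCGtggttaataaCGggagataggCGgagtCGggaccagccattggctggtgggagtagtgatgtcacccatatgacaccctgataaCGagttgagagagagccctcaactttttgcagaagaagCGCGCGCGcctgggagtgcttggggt
Fabp7 promoter: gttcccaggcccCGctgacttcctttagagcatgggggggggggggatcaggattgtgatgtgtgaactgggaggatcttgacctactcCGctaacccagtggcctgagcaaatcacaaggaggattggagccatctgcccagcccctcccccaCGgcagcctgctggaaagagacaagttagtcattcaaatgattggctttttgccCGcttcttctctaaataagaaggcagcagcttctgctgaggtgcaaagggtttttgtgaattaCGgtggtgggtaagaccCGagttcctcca
These windows hold 37, 21 and 6 CG dinucleotides, against a median of 7 over 32851 windows of this length. The Hes5 window holds 41, that of Zic1 31, that of Nes 18 and the 2 Pax6 windows 18 and 16, so Fabp7 alone among the 7 genes is below that median. The letters AACAAT (the core bound by Sox factors), searched on both strands, are in 10.7% of all windows and in none of these. TGGGAA (the core bound by the Notch effector Rbpj) is in 25.6% of all windows, and occurs in 2 places of the Hes5 window and in 1 each of the Sox1 and Fabp7 windows. No methylation was measured in these files.

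Most cells had few of these transcripts. At 50000 reads per cell, Pax6 was seen in 107 of 486 cells (22% [18.4 to 26]), Sox11 in 96 (19.8% [16.3 to 23.6]), Sox1 in 64 (13.2% [10.3 to 16.5]) and Crabp2 in 55 (11.3% [8.64 to 14.5]). Hes3 was seen in 37 cells, Nes in 28, Fabp7 in 20 and Sox3 in 15, and Hes5 and Zic1 in 4 each. Without thinning these numbers were 143, 138, 89, 75, 50, 33, 30, 34, 7 and 9 in the same order. Per kilobase of exon, the summed level over all cells was highest for Crabp2 (9.48 CPM per kb) and Fabp7 (6.80), followed by Hes3 (3.69), Sox11 (1.39), Pax6 (1.38) and Sox1 (1.02), and Nes (0.41), Sox3 (0.34), Hes5 (0.11) and Zic1 (0.09) were the lowest. A sum over cells cannot tell fewer expressing cells from less RNA per cell, and Fabp7 is a case in point: 34.3% of all its reads came from 1 cell, a 3AKO cell of day 9 with 2132 CPM, and the median over the 30 cells with any read was 35.9 CPM. In the cells with any read, the median level was highest for Hes3 (45.1 CPM) and Pax6 (36.1 CPM), followed by Fabp7 and Crabp2 (33.9 CPM). Pax6 and Sox11 were thus the most widespread of the 10. The medians are not scaled by exon length, so their order cannot be set against that of the sums per kilobase.

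**Figure D1:**
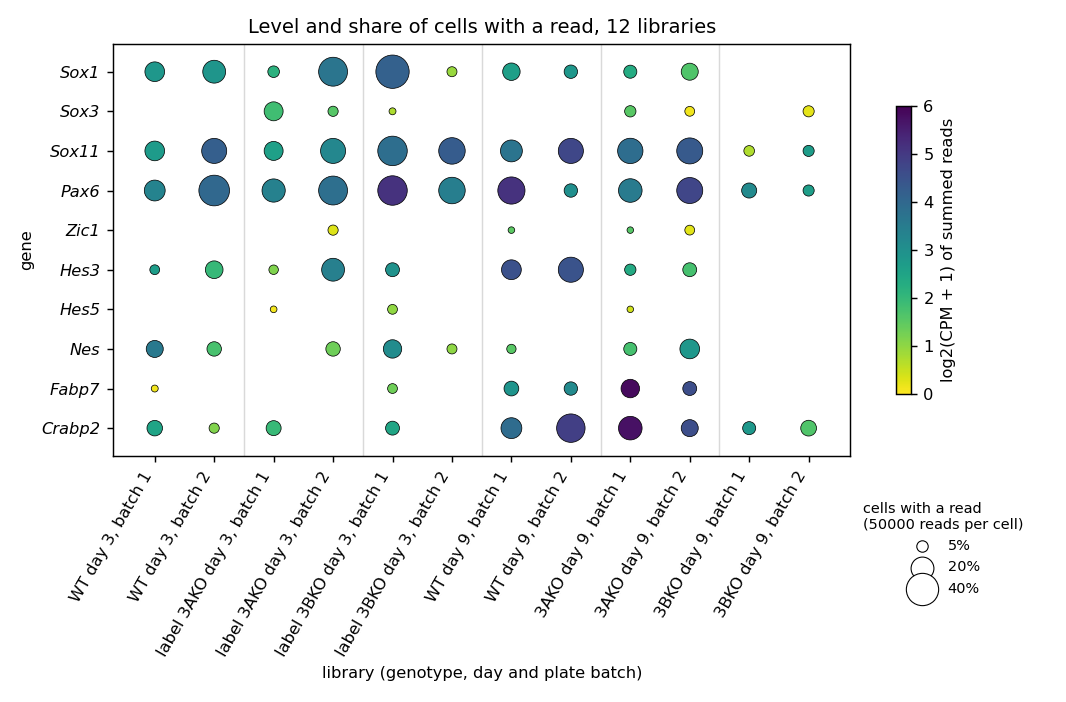
Level and spread of the 10 genes (rows) in the 12 libraries (columns: genotype, day and batch). The area of a circle is the percent of cells with a read at 50000 reads per cell and its colour is log2(CPM + 1) of the summed reads; no circle means no such cell. In the 3BKO libraries of day 9, 6 genes (Sox1, Zic1, Hes3, Hes5, Nes and Fabp7) have no circle in either batch, and Fabp7 and Crabp2 are strongest in batch 1 of 3AKO at day 9.

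Among the Sox genes, Sox1, whose product is the earliest specific mark of neural ectoderm, was at 6.13 and 6.26 CPM in batches 1 and 2 of WT at day 3, with reads in 8 of 54 and 5 of 25 cells. The day 3 library labelled 3BKO had 17 CPM in batch 1, in 23 of 54 cells (42.6% [29.2 to 56.8]), and 0.912 CPM in batch 2, in 1 of 26. The library labelled 3AKO had 3.51 CPM in batch 1 (3 of 58 cells) and 11.6 CPM in batch 2 (8 of 25 cells). Both libraries on plate 210 were thus above both WT libraries, and both on plate 211 below them, whatever their labels. At day 9, Sox1 was at 5.2 and 6.11 CPM in WT (7 of 60 and 2 of 29 cells) and at 4.01 and 2.12 CPM in 3AKO (4 of 61 and 3 of 27). No read of Sox1 was found in 46 and 21 3BKO cells, thinned or not. With 0 of 67 cells, a share of up to 5.36% remains possible by the exact interval. Taking 3 reads over the 3BKO group as the upper limit, the level in WT was at least 55.7-fold higher (24.3-fold in batch 1 and 33.1-fold in batch 2). Such a limit treats reads as independent. It leaves out which cells were drawn, although the reads sat in few cells.

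Sox11, a SoxC factor of neural progenitors and young neurons, had more even levels. At day 3 it was at 5.60 and 17.5 CPM in WT, at 5.14 and 8.30 CPM under label 3AKO, and at 13.5 and 18.5 CPM under label 3BKO. At day 9 it was at 11.9 and 25.5 CPM in WT, at 13.7 and 19.1 CPM in 3AKO, and at 0.641 and 5.54 CPM in 3BKO. Batch 2 was the higher one in all 6 groups, and both 3BKO libraries of day 9 lay below both libraries of the other genotypes. Sox11 was seen in 18 of 89 WT cells, in 22 of 88 3AKO cells and in 3 of 67 3BKO cells (4.48% [0.933 to 12.5]), and 1 of these 3 held 90.9% of the 3BKO reads. Sox3, like Sox1 a SoxB1 gene, did not exceed 2.57 CPM in any library. It was seen in 8 of 58 cells of label 3AKO in batch 1 at day 3, and in 0 of 79 WT cells of that day, or in 3 of the 79 (3.80% [0.79 to 10.7]) without thinning.

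Pax6, a homeodomain factor of the forebrain, eye and spinal cord, was seen in 4.76% to 36% of the cells of each library. In WT it was at 8.98 and 15.0 CPM at day 3 and at 34.5 and 7.19 CPM at day 9, so the direction between days turned with the batch. A single cell with 754 CPM held 29.3% of the WT reads of day 9. It was at 10.5 and 25.9 CPM in 3AKO and at 7.84 and 5.29 CPM in 3BKO at day 9, where 5 of 67 cells had a read (7.46% [2.47 to 16.6]) against 19 of 89 WT cells (21.3% [13.4 to 31.3]). Under label 3BKO at day 3 it was at 34.5 CPM in batch 1 and 9.94 CPM in batch 2, and under label 3AKO at 9.51 and 13.1 CPM. Zic1, a zinc finger gene of the dorsal neural tube, had 42 reads in 3 cells of WT and 30 in 3 cells of 3AKO at day 9, no read in 3BKO, and at most 2 reads in any day 3 library.

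Hes3 and Hes5 encode bHLH repressors that keep neural progenitors from differentiating; Hes5 is a direct target of Notch. Hes3 was at 5.42 and 2.95 CPM in WT at day 3 and at 21.7 and 21.1 CPM at day 9, with reads in 5 of 79 and 16 of 89 cells. In 3AKO of day 9 it was at 4.16 and 2.42 CPM (5 of 88 cells), and in 3BKO at 0.0712 and 0.0615 CPM, which is 1 read in each batch. Both mutant genotypes lay below both WT libraries of day 9. Under the day 3 labels it was at 1.25 and 9.66 CPM (3AKO) and at 6.80 and 0 CPM (3BKO), again higher on plate 210 than on plate 211. Hes5 had 22 reads in all, in 7 cells, none of them WT of either day or 3BKO of day 9.

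Nes, the nestin gene of neuroepithelial cells, was at 10.9 and 2.36 CPM in WT at day 3, where 1 cell held 51% of the reads, and at 1.97 and 0 CPM at day 9. In 3AKO of day 9 it was at 2.44 and 6.06 CPM, in 8 of 88 cells (9.09% [4.01 to 17.1]), against 2 of 89 WT cells (2.25% [0.273 to 7.88]) and 0 of 67 3BKO cells. At day 3 it was at 0 and 1.49 CPM under label 3AKO and at 7.55 and 1.01 CPM under label 3BKO. Its values rest on 33 cells in all, and the intervals of the day 9 shares overlap.

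Fabp7, the brain fatty acid binding protein of radial glia, had at most 1.49 CPM in any day 3 library. At day 9 it was at 6.47 and 7.86 CPM in WT (5 of 60 and 2 of 29 cells) and at 56.9 and 22.9 CPM in 3AKO (8 of 61 and 2 of 27 cells). Not 1 read of it was found in 67 3BKO cells, with or without thinning, against 10 of 88 3AKO cells (11.4% [5.59 to 19.9]). The 3AKO level was carried by few cells: 1 held 55.5% of the reads in batch 1 and 1 held 72.2% in batch 2, and the shares of cells in 3AKO and WT (7.87% [3.22 to 15.5]) have overlapping intervals. Crabp2, which brings retinoic acid to its nuclear receptors, was at 4.62 and 1.18 CPM in WT at day 3 and at 13.9 and 28.4 CPM at day 9. In 3AKO of day 9 it was at 52.5 and 22.9 CPM, above WT in batch 1 and below it in batch 2, and in 3BKO at 5.98 and 2.15 CPM, below the other genotypes in both. Its day 3 mutant libraries held 2.88 and 0 CPM (label 3AKO) and 4.56 and 1.01 CPM (label 3BKO).

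To set these differences against other genes, a gene was counted as different between groups when its ratio of (CPM + 1) was at least 2-fold (1 on the log2 scale) in the same direction in both batches. Only genes with a read in at least 10% of the cells of the pooled groups were counted, without thinning. The scale of log2(CPM + 1) understates the change of low genes, and these counts cover the genes that passed this filter, not all 10. A gene can pass through the cells of 1 group alone, and the filter then favours a call in the direction of that group, so that its count is a description and supports nothing about the 10 genes. Both mutants were compared with the same WT cells.

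Between 3AKO and WT at day 9, 6 of the 10 genes passed the filter. Fabp7 was higher (log2 ratio 2.46, 2.95 and 1.43 in the batches), where 1.48% of 11516 genes were, and Hes3 was lower (-2.34, with -2.14 and -2.69), where 1.94% were. Without the cell with the most reads in each group, the log2 ratio of Fabp7 was 1.96. The 3AKO cell left out was of batch 1, so the 3AKO level of batch 2 was not checked in this way. There, 2 of 27 3AKO cells had a read and 1 held 72.2% of the reads. Sox11 (-0.05), Sox1 (-0.62), Pax6 (-0.54) and Crabp2 (1.05) did not differ by this rule, and all but Sox1 had opposite signs in the batches. For the 4 genes under the filter, the log2 ratios were 1.11 for Nes, 0.76 for Sox3, 0.32 for Hes5 and 0.03 for Zic1.

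Between 3BKO and WT at day 9, 4 genes passed and 3 of these were lower: Sox11 (-2.04, with -2.97 and -2.02 in the batches), Hes3 (-4.40, -4.41 and -4.38) and Crabp2 (-2.01, -1.09 and -3.22). Among 11533 genes, 5.31% were lower and 3.13% higher, and none of the 10 was higher. All 4 reached the filter through WT cells alone (reads in 24, 17 and 22 of 89 WT cells for Sox11, Hes3 and Crabp2, against 3, 2 and 5 of 67 3BKO cells), so nothing is read from the 3 of 4. Pax6 was lower by 1.81 over both batches, with -2.01 in batch 1 and -0.38 in batch 2. Of the 6 under the filter, Sox1 and Fabp7 had no read in 3BKO and were at least 55.7-fold and 70.2-fold lower than in WT by the limit of 3 counts. Within batches 1 and 2 the limits for Fabp7 were 30.3-fold and 42.6-fold. These limits count reads and not cells. By cells, a share of up to 5.36% remains possible in 3BKO for either gene. Without thinning, 15.7% of WT cells had a read of Sox1 and 13.5% of Fabp7. Nes and Zic1 had no read in 3BKO and 45 and 42 reads in WT, all in batch 1, of which 1 cell held 84.4% and 1 cell 73.8%. Their limits of 13-fold and 12.2-fold came down to 2.05-fold and 3.22-fold without that cell, and batch 2 gave none. Sox3 had 3 reads against 10, and Hes5 none in either group. The summed level was lower in 3BKO than in WT for 9 of the 10 genes, as it was for 51.3% of the 25040 genes with a read in either group. Of the 9, Sox3 had overlapping intervals, and Nes and Zic1 had no read in batch 2 of either group.

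Between 3BKO and 3AKO at day 9, 3 genes passed. Sox11 (-1.99) and Crabp2 (-3.06) were lower in 3BKO in both batches, as were 5.34% of 11606 genes, while 4.52% were higher and none of the 10 was. Both reached the filter through 3AKO cells alone (28 and 18 of 88 cells with a read, against 3 and 5 of 67), as did Pax6, so nothing is read from this count. Pax6 had a log2 ratio of -1.26, with -0.38 and -2.10 in the batches. By the limit of 3 reads, Fabp7, under the filter, was at least 432-fold lower in 3BKO. This was 266-fold in batch 1, 124-fold in batch 2 and 248-fold without the 3AKO cell that held 43.2% of the reads. By cells, a share of up to 5.36% remains possible in 3BKO, against 11.4% of 3AKO cells with a read.

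**Figure D2:**
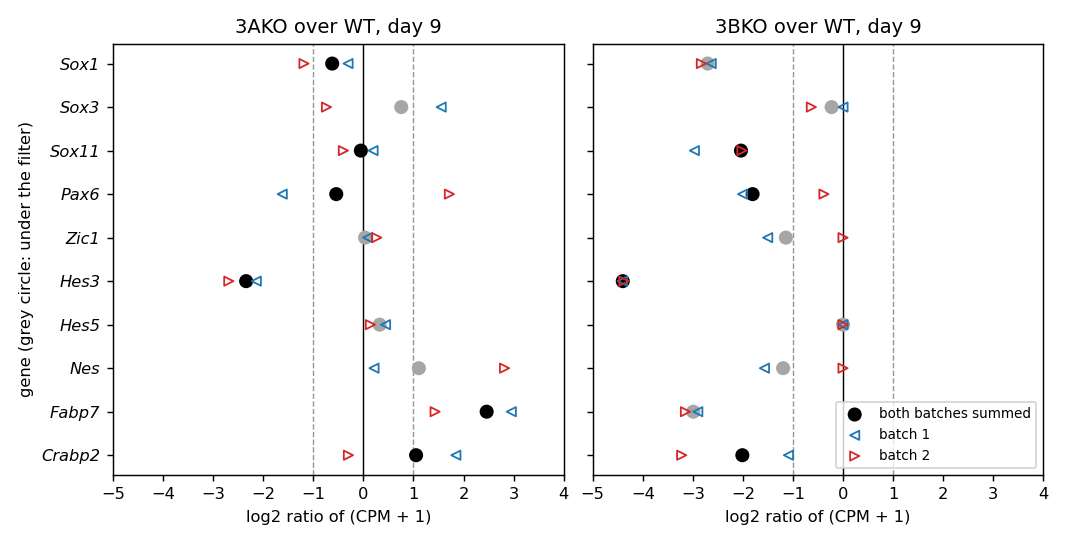
Log2 ratios of (CPM + 1) of 3AKO (left) and 3BKO (right) over WT at day 9 for the 10 genes, with both batches summed (filled circles, grey where the gene was under the filter) and in batch 1 (blue) and batch 2 (red). Dashed lines mark a 2-fold ratio. For 3BKO no filled circle lies to the right of 0, while for 3AKO Fabp7 lies right of the 2-fold line in both batches, Hes3 left of it in both, and Sox3, Sox11, Pax6 and Crabp2 on opposite sides of 0 in the batches.

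In WT between days 3 and 9, 5 genes passed. Hes3 (log2 ratio 2.07, with 1.82 and 2.48 in the batches) and Crabp2 (2.26, with 1.40 and 3.75) were higher at day 9, where 5.8% of 11950 genes were, and none was lower, against 2.08% of genes. Both reached the filter through day 9 cells alone. The median of all genes tested was 0.18 here, and -0.016 with TMM and 0.0049 with median-ratio scaling. Sox11 (0.58), Pax6 (1.06, with opposite signs in the batches) and Sox1 (-0.14) did not differ by this rule. Fabp7, under the filter, went from 0.101 to 6.95 CPM (2 and 242 reads). Nes, also under it, went from 7.25 to 1.29 CPM (143 and 45 reads). Of the Nes reads, 1 cell held 51% at day 3 and 1 cell 84.4% at day 9.

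At day 3 in batch 1, 5 genes passed between label 3BKO and WT. Sox1 (log2 ratio 1.34), Sox11 (1.14) and Pax6 (1.83) were higher under label 3BKO, where 3.86% of 12101 genes were, and none was lower, where 3.06% were. Nes (-0.48) and Crabp2 (-0.02) did not differ by the rule. Between label 3AKO and WT, 4 genes passed (Sox1 -0.66, Sox11 -0.10, Pax6 0.07 and Crabp2 -0.53) and none was counted in either direction, against 5.37% of 12150 genes higher and 3.66% lower. Under the filter in that comparison, Nes had 0 reads against 123 in WT. These day 3 ratios rest on 1 batch, and each genotype was on its own plate there too.

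The 10 genes were then counted in each cell. At 50000 reads, 262 of 486 cells (53.9%) had a read of at least 1 of them, 110 (22.6%) of at least 2, 38 of at least 3, and 15 of at least 4. At day 9, at least 2 were seen in 26 of 89 WT cells (29.2% [20.1 to 39.8]) and in 24 of 88 3AKO cells (27.3% [18.3 to 37.8]). In 3BKO of day 9 it was 0 of 67 cells, where up to 5.36% remains possible, or 1 cell without thinning. At least 1 was seen in 50 WT, 52 3AKO and 14 3BKO cells (56.2%, 59.1% and 20.9% [11.9 to 32.6]). The 3BKO share was low in both batches (9 of 46 and 5 of 21 cells). Averaged over all ways of drawing 50000 reads, the share with at least 2 was 27.9% in WT, against 23% in 3AKO and 1.15% in 3BKO. At day 3, at least 2 were seen in 15 of 79 WT cells (19% [11 to 29.4]), in 12 of 58 cells of label 3AKO in batch 1 (20.7%) and 8 of 25 in batch 2 (32%), and in 23 of 54 of label 3BKO in batch 1 (42.6% [29.2 to 56.8]) and 2 of 26 in batch 2 (7.69% [0.946 to 25.1]). As with Sox1, the share was higher in both libraries of plate 210 than in either of plate 211.

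**Figure D3:**
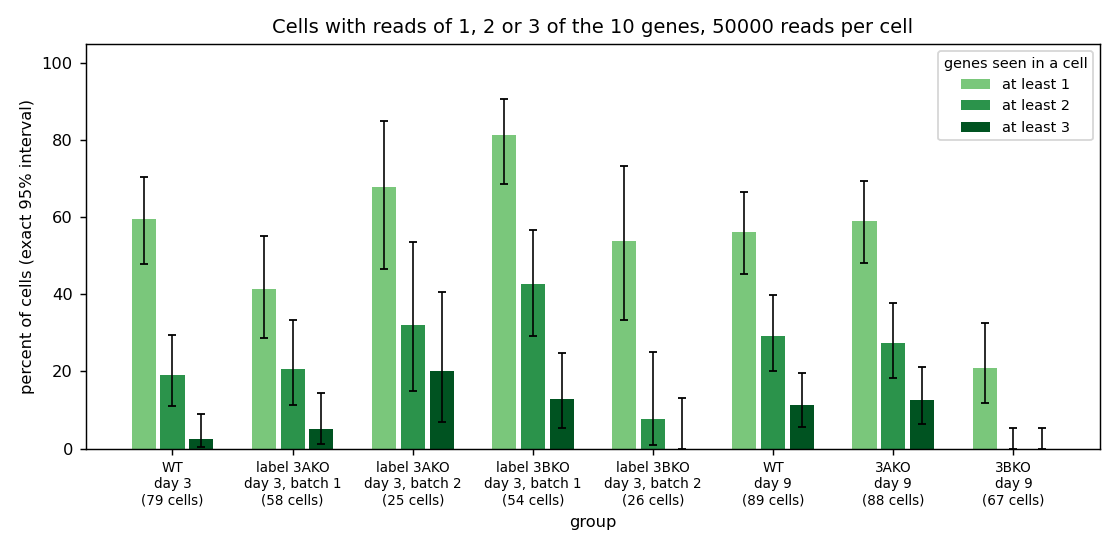
Percent of cells (vertical axis) with reads of at least 1, 2 or 3 of the 10 genes at 50000 reads per cell, in each group, with the day 3 mutant labels split by batch. Whiskers are exact 95% binomial intervals for counting error only. In 3BKO at day 9, 14 of 67 cells have 1 gene and none has 2, while the intervals of WT and 3AKO of that day overlap in all 3 bars.

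The 15 cells with at least 4 of the genes comprised 5 WT and 4 3AKO cells of day 9, 1 WT cell of day 3, and 4 and 1 day 3 cells of labels 3BKO and 3AKO. The cell with the most, a 3AKO cell of day 9 in batch 1, had reads of Sox11, Pax6, Nes, Fabp7, Crabp2 and Zic1, with 2132 CPM of Fabp7 and 899 CPM of Crabp2. Another 3AKO cell of that library had 301 CPM of Sox1, 236 CPM of Sox11, 781 CPM of Fabp7 and 294 CPM of Crabp2. A WT cell of day 9 with Sox11, Pax6, Nes and Crabp2 had the highest Pax6 level of all, 754 CPM, with 274 CPM of Sox11. These 3 cells had no read of the pluripotency genes Zfp42 and Pou5f1, the latter picked after its values were seen. Of the 9 cells of day 9 with at least 4 of the genes, 8 had no read of Zfp42, against 17.2% of the 244 kept cells of day 9. Of the 6 of day 3, 1 had none, against 4.55% of 242. For Pou5f1, 5 of the 9 had no read, against 13.5% of the kept cells of day 9. Of the 6 of day 3, 0 lacked Pou5f1, against 0.413% of the kept cells.

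Which of the genes went together in single cells was described over the 45 pairs. For each pair, the cells with reads of both at 50000 reads were set beside the number expected from the 2 shares in each of the 12 libraries, so that differences between genotypes, days and batches do not enter. Of the 45 pairs, 17 were seen in at least 5 cells and 11 in none. Fabp7 and Crabp2 stood out: 16 cells had both, where 3.62 were expected, so 80% of the 20 Fabp7 cells also had Crabp2, and 29.1% of the 55 Crabp2 cells had Fabp7. Across cells, with library means removed, Pearson's r of log2(CPM + 1) was 0.50 (486 cells that share 12 libraries). These 16 cells were 7 WT and 7 3AKO cells of day 9 and 1 each of WT and label 3BKO at day 3.

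Taking pairs in at least 5 cells at 2 or more times the expected number, limits chosen after the values were seen, 4 more pairs stood beside it: Sox11 with Fabp7 (13 cells, 4.70 expected), Nes with Crabp2 (8 and 2.78), Nes with Fabp7 (5 and 1.36) and Sox3 with Sox11 (6 and 2.72). Averaged over all draws of reads, 3 of these 5 pairs kept both limits. Sox11 with Crabp2 was seen in 21 cells, where 11.2 were expected. The other pairs among the 4 most frequent were closer to their expected numbers: Sox11 with Pax6 (27 and 23.8 cells), Sox1 with Sox11 (20 and 16.2) and Sox1 with Pax6 (19 and 18). Pax6 and Sox1 were thus seen together about as often as their shares give, while Sox11, Nes, Crabp2 and Fabp7 overlapped in more cells than that. Such an excess was not confined to these genes. Pax6 with Hes3 was seen in 14 cells (8.95 expected), and Fabp7 with Zic1 in 3 (0.289 expected, r 0.40). Hes3 with Nes was seen in 0 cells (2.17 expected). Of 45 values of r, 6 were above 0.2 and 30 were under 0.1 in size.

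**Figure D4:**
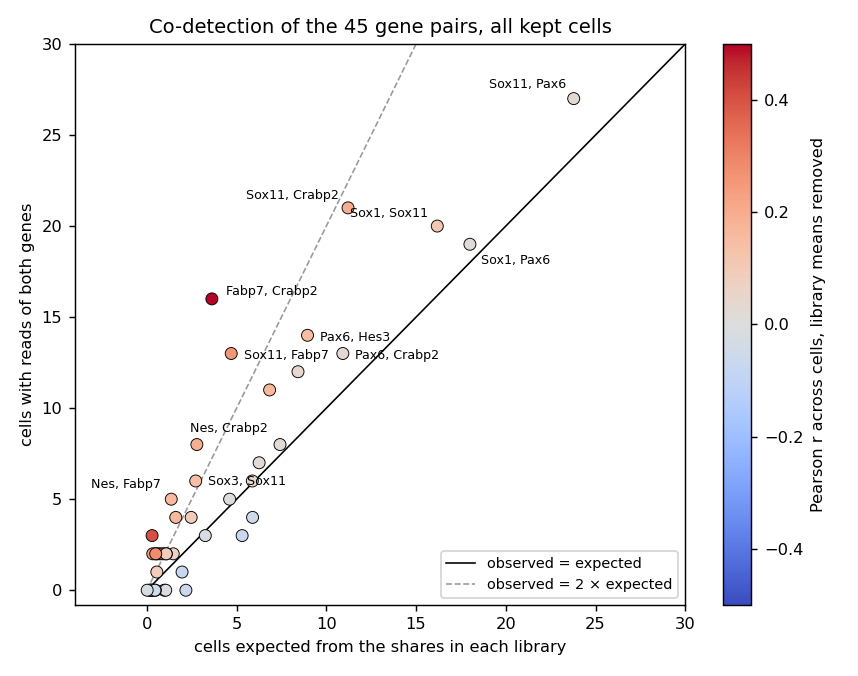
Cells with reads of both genes (vertical axis) against the number expected from their shares in each library (horizontal axis) for the 45 pairs, 486 cells at 50000 reads each. Colour is Pearson's r across cells with library means removed, the solid line is equality and the dashed line 2 times the expected number. Fabp7 with Crabp2 lies farthest above the lines (16 cells, 3.62 expected, r 0.50), and Sox1 with Pax6 (19 and 18) lies beside the line of equality.

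The same genes differed in how they went with Zfp42 (Rex1), a marker of naive pluripotency seen in 422 of 486 cells. Of the 20 Fabp7 cells, 2 also had Zfp42, where 15.5 were expected from the shares in each library. Of the 55 Crabp2 cells, 24 had it (45.4 expected), of the 28 Nes cells 15 (23.7) and of the 96 Sox11 cells 69 (81.6). Sox1 with 56 (56.2) and Pax6 with 94 (91.9) were close to their expected numbers, and Hes3 with 35 (30.8) was somewhat above. Over all 15 pluripotency markers that were listed, Fabp7 cells had 97 co-detections where 174 were expected, Crabp2 cells 395 (497), Nes cells 214 (263), Sox11 cells 832 (896), Sox3 cells 129 (145) and the 4 Zic1 cells 10 (35), against 612 (610) for Sox1, 1020 (1008) for Pax6 and 366 (336) for Hes3. Summed over the list, Pax6, Sox1 and Hes3 were thus at or above the expected number, whereas Fabp7, Crabp2, Nes, Sox11, Sox3 and Zic1 fell short of it. The sum mixes naive and primed markers, which did not all go the same way. Sox11 met Pim2 in 55 cells (36 expected) and Fgf5, of the primed epiblast, in 25 (24). It met Klf2 in 54 (71) and Tfcp2l1 in 32 (43.8).

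**Figure D5:**
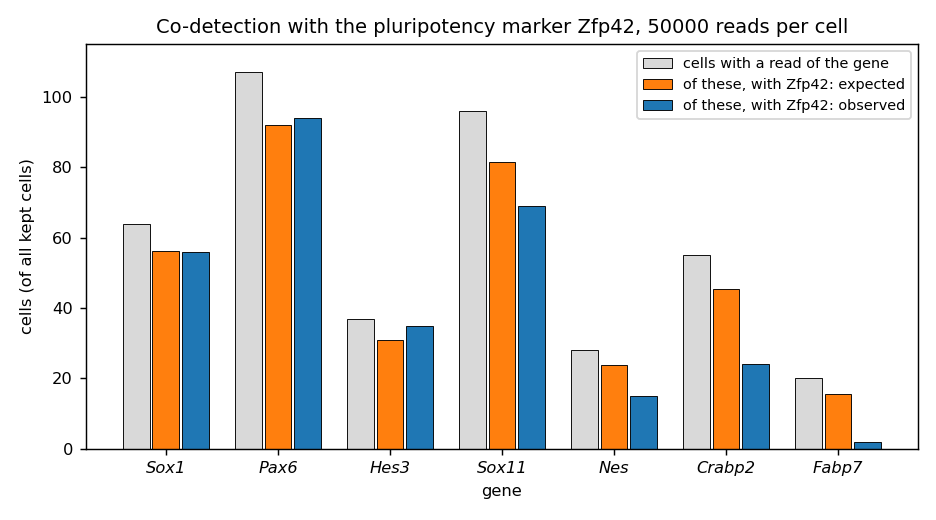
For 7 of the genes, the number of cells with a read (grey), how many of these were expected to hold a read of Zfp42 from the shares in each library (orange), and how many did (blue), at 50000 reads per cell. Observed and expected numbers lie close for Sox1 and Pax6, and the observed number is somewhat higher for Hes3. The observed number is lower for Sox11 (69 of 81.6), Nes (15 of 23.7), Crabp2 (24 of 45.4) and Fabp7 (2 of 15.5).

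Cdh2 (N-cadherin), which neural ectoderm takes up as it leaves the epiblast, was seen in 53 cells, and with Crabp2 in 22 (6.64 expected), with Fabp7 in 11 (2.99) with Sox11 in 19 (11.7), with Hes3 in 8 (3.98), with Nes in 7 (3.71) and with Sox3 in 6 (1.88), and with Pax6 in 13 (12.5) and Sox1 in 8 (7.24). Gbx2, a factor of the hindbrain border that naive ESCs also use, was seen with Sox1 in 32 cells (21.1 expected) and with Sox11 in 28 (27.4), but 43.5% of its exon bases are shared with D130058E05Rik on the opposite strand. Pou3f1 (Oct6), of the epiblast and early neural plate, was seen with Nes in 9 cells (3.11 expected) and with Crabp2 in 12 (5.25). Of markers of neurons, Fabp7 cells had 37 co-detections over 14 genes (38.8 expected) and Sox11 cells 210 (206). For the genes seen in at least 20% of cells, of which Pax6 was the only one, the most alike of 7832 genes across 486 cells were Ina (r 0.27), Efhd1 (0.25) and Vrk1 (0.21), which are weak correlations in sparse counts.

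Lists of related genes were read by the same fold rule at day 9, here and below. Of all genes tested, 1.48% were higher and 1.94% lower between 3AKO and WT. Between 3BKO and WT these shares were 3.13% and 5.31%, and between 3BKO and 3AKO 4.52% and 5.34%. A listed gene can also pass the filter through 1 group alone, as Cdh2 did, with no read in 3BKO. The genes counted in these lists are thus a description, and nothing is read from their number. Of 34 other early neural genes, 10 passed the filter between 3AKO and WT, and Pou3f1 alone differed (8.76 against 1.67 CPM, log2 ratio 1.87). The median of the 10 was -0.28, against -0.09 over all genes tested. Between 3BKO and WT, 8 passed, and Zfp521 (2.64 against 11.9 CPM) and Meis2 (5.55 against 19 CPM), both factors of neural progenitors, were lower, with a median of 0.66 over the 8 against -0.07 over all. Between 3BKO and 3AKO, 11 passed: Cdh2 (0 against 12.4 CPM), Gbx2 (0.693 against 25.3 CPM) and Pou3f1 (1.32 against 8.76 CPM) were lower in 3BKO, and Hesx1 (15.6 against 2.68 CPM), of the anterior neural border, was higher. The median of this broader list in 3BKO against WT thus lay above that of all genes tested.

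In the Notch pathway (20 genes, 12 and 11 passing, with medians of -0.06 and -0.08), the ligand gene Dll3 was higher (17.6 against 5.92 CPM) and the inhibitor gene Numb lower (8.76 against 31.4 CPM) in 3AKO than in WT, and none differed between 3BKO and WT. In the retinoid pathway (19 genes, 7 passing in each comparison, with medians of -0.05 against WT for 3AKO and -1.23 for 3BKO), Crabp1, the other cellular retinoic acid binding protein gene, was at 27.9 CPM in WT, 108 CPM in 3AKO and 39.8 CPM in 3BKO, and it was higher in 3AKO in both batches (log2 ratio 1.91). Of the retinoid X receptor genes, Rxrg was at 24, 16 and 0.660 CPM in the same order (log2 ratio of 3BKO to WT -3.91) and Rxrb was higher in 3BKO (19 against 4.39 CPM). Of the 7 relatives of Fabp7 and Crabp2, 4 passed in each comparison. Of the 5 other Sox B and C genes, 3 passed between 3AKO and WT, 2 between 3BKO and WT and 3 between 3BKO and 3AKO, and none of these differed.

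Markers of other cells that the wells could hold moved as follows at day 9. Of the 15 pluripotency markers, 14 passed in each comparison, with medians of 0.04 for 3AKO and 0.38 for 3BKO against WT; none differed between 3AKO and WT, while between 3BKO and WT the naive markers Zfp42 (2269 against 963 CPM) and Klf4 (51.3 against 11.5 CPM) and the signal gene Nodal (302 against 107 CPM) were higher in 3BKO, and Fgf5 (2.11 against 61.1 CPM), of the primed epiblast, and Pim2 (14.8 against 409 CPM) were lower. All 15 were seen in each group, with a summed level of 4238 CPM in WT, 4136 CPM in 3AKO and 5810 CPM in 3BKO at day 9. Of the 14 neuron markers, 4 passed between 3AKO and WT and 3 between 3BKO and WT. Nefl was higher in 3AKO than in WT (11 against 2.07 CPM) and none that passed differed between 3BKO and WT. The list summed to 387, 344 and 333 CPM in WT, 3AKO and 3BKO. Of the 13 surface ectoderm markers (6 and 5 passing), Krt18 was higher in 3AKO (45.7 against 6.98 CPM) and Tfap2c (92.6 against 42.2 CPM) and Grhl2 (14.4 against 4.31 CPM) in 3BKO, with list sums of 136, 152 and 220 CPM. Of the 10 neural crest markers (24.2, 24.2 and 35.8 CPM), 1 passed between 3AKO and WT and 2 between 3BKO and WT, and none of these differed. Of the 18 of mesoderm and endoderm (187, 144 and 65 CPM), 2 passed in each comparison with WT and neither differed, while the rest were not counted. Dab2 was at 0.957 CPM in 3BKO against 38.3 CPM in 3AKO. The part of these cells in the levels of the 10 genes was not tested.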

How the data were processed

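Single cells of EBs were profiled with a modified Smart-seq2 protocol, 1 sorted cell per well. The authors deposited raw read counts per gene name; per the labels and the methods, reads were trimmed with Trim Galore 0.5.0, aligned to GRCm38 with STAR 2.7.1a and counted over exons with featureCounts 1.6.1, and FastQC 0.11.2 was used. Of the table, 26 columns belong to no sample and were not used. Gene positions came from GENCODE vM21, in which 97.0% of 55228 names were found.

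Counts were summed over kept cells per genotype, day and batch and expressed as CPM (reads per 1000000 assigned reads), with exact Poisson intervals; shares of cells have Clopper-Pearson intervals, both at 95%. A level of 0 allows 3 reads, and the limit of a share of 0 is the upper end of its exact interval. Log2 ratios used a pseudocount of 1 CPM. Each group is 1 sample, so no test was run and no p-value is given. No doublet caller was run. All 10 genes are named in each result, and from 10 other gene lists those that pass the fold rule, of which 1 is not reported here; the genes most like a member are given where it was seen in at least 20% of cells. The fold rule was tested on simulated Poisson counts, with changes planted only in genes of higher level. This does not cover genes as low as most of these 10, or reads that sit in few cells. The genes, lists and limits were chosen with earlier results of these data known. Alternatives, described in the closing section, included edgeR 4.0.16 (TMM) and DESeq2 1.42.0 (median-ratio) scaling.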

Additional observations from a re-analysis of the deposited data

Results flagged for a closer look

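At day 9, the summed level of Fabp7 lay above WT in 3AKO and below WT in 3BKO in both batches. It was at 42.8 CPM in 3AKO, 6.95 CPM in WT and 0 CPM in 3BKO, and its log2 ratio of 3BKO to 3AKO was -5.45 (-5.86 in batch 1 and -4.58 in batch 2). The difference was not tested, since each genotype is 1 sample, and both ratios to WT share the same WT cells. The 3AKO value rests on 10 of 88 cells, of which 1 held 43.2% of the reads. In batch 2 it rests on 2 of 27 cells, of which 1 held 72.2%, while 6 of 29 WT cells there had a read without thinning.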

How the results depend on the processing

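No paired analysis was possible because the labels give no replicate numbers within a group and no test was run. The depth limits all shares near 0, and the groups' single samples limit every difference. Of the recomputed log2 ratios of the 10 genes, 831 stayed within the range that the exact counting intervals of both groups allow and 149 moved beyond it, and no ratio counted as different changed sign. Of the counts of genes higher in 3AKO than WT at day 9 (1), batch 1 or batch 2 alone gave 2, and a log2 limit of 2, a pseudocount of 10 CPM, a detection limit of 20% of cells or the stricter cell filter (100000 reads, 4000 genes, 25% mitochondrial) gave 0. The count lower (1) was 2 in either batch alone and 0 at the 20% limit. For 3BKO against WT, the 3 lower genes became 5 with a 5% limit or no filter and 0 at 20%. For 3BKO against 3AKO, the 2 lower genes became 6 with a 5% limit or no filter, and 1 with a log2 limit of 2, a pseudocount of 10 CPM or the 20% limit. For WT between days, the 2 higher genes became 0 with a log2 limit of 2 or the 20% limit and 1 with a pseudocount of 10 CPM, and 0 lower became 1 with a 5% limit or no filter. At day 3, label 3AKO gained 1 higher gene with a 5% limit, no filter or the stricter cell filter, and 2 lower ones with a 5% limit, no filter or a log2 limit of 0.5. For label 3BKO, the 3 higher genes became 0 with a log2 limit of 2 and 1 with a pseudocount of 10 CPM. The share of cells with at least 2 of the genes was 40.4% in WT at day 9 without thinning, 16.9% when a gene needed at least 2 reads and 4.49% when it needed 5. In 3AKO of day 9 it was 18.2% with at least 2 reads, 7.95% with 5, and 18.2% in 1 of 3 other random draws. In WT of day 3 it was 39.2% without thinning, 7.59% with at least 2 reads and 0 with 5. With at least 2 reads, label 3AKO of day 3 gave 6.9% in batch 1 and 8% in batch 2, and label 3BKO 22.2% and 0, and with 5 these were 0, 0, 3.7% and 0. Without thinning, label 3AKO gave 56% in batch 2 and label 3BKO 63% in batch 1, the latter 57.7% when thinned to 100000 reads. The 5 pairs at 2 or more times the expected number became 8 in batch 1 alone, 0 in batch 2 alone, 1 with at least 5 reads, 2 in 1 other draw and 3 as the average over all draws. The other draws, the average over draws and the limits given by batch or without 1 cell were chosen after seeing the data.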
